A study of Mus musculus with 15 samples.

Results

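Glutathione S-transferases (GSTs) are enzymes that join the tripeptide glutathione to reactive, electron-poor molecules, so that drugs, pollutants and products of lipid peroxidation can be made water-soluble and exported from the cell. The cytosolic enzymes work as dimers and fall into classes, of which alpha, mu, pi and theta are represented here, and genes of a class often lie side by side in clusters that arose by duplication. In rodent liver the alpha and mu classes make up much of the cytosolic GST protein, their genes are known targets of the oxidative stress factor NRF2 and of the drug-sensing receptors CAR and PXR, and many hepatic detoxification genes differ between the sexes under the control of the growth hormone pattern.

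The 10 GST genes described here were chosen by symbol in the gene count table of 8-week-old mouse livers: Gstp1 and Gstp2 of the pi class, Gstt1 and Gstt3 of the theta class, Gstm1, Gstm2 and Gstm3 of the mu class, and Gsta2, Gsta3 and Gsta4 of the alpha class. They are 10 of 55573 genes in the table, and all 10 passed the filter on low counts that left 17655 genes for testing. The livers came from wild type (WT) females (FWT, n = 3), WT males (MWT, n = 3), females homozygous for a deletion in Esr1, the gene of estrogen receptor alpha (ESR1KO, FKO, n = 5), and ESR1KO males (MKO, n = 4). All mice carry the strain label B6N(Cg)-Esr1tm4.2Ksk/J, and the WT mice were littermates from the same colony. The deletion is present in every tissue from conception, and the study describes raised testosterone in ESR1KO mice of both sexes, so that loss of the receptor in the liver and changes in circulating hormones cannot be told apart in these animals.

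RNA was sequenced after removal of ribosomal RNA, and counts per library ran from 27799061 to 78624766. Levels are given as counts per 1000000 counts (CPM) scaled with edgeR's trimmed mean of M values (TMM) factors, which lay between 0.9568 and 1.035. Differences are log2 fold changes with their standard errors (SE) from edgeR's quasi-likelihood test, with p-values adjusted by Benjamini-Hochberg over all 17655 genes, and a gene is called at an adjusted p under 0.05. Esr1 itself stood at 81.9 ± 6.79 CPM (SD) in FWT, 36.1 ± 14.1 in MWT, 13.1 ± 4.01 in FKO and 11.9 ± 3.35 in MKO, and it was lower in FKO than in FWT (edgeR, adjusted p = 4.466e-06) and in MKO than in MWT (adjusted p = 0.004451). All 5 hepatocyte markers (Alb, Ttr, Apoa1, Hnf4a and Cps1) were present in each library, with summed levels of 73240 to 106800 CPM, lowest in MWT (73240 to 75260) and highest in FWT (99340 to 106800). Most of that sum was Alb, with means of 86410 CPM in FWT and 54550 in MWT. Ttr, Apoa1, Hnf4a and Cps1 went the other way, with lower means in FWT than in MWT.

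The pi genes are shown first, because how far their reads can be separated bears on each value given for them. Gstp1 lies at chr19:4035407-4037985 and Gstp2 at chr19:4040285-4046023, both on the minus strand of GRCm38 (GENCODE M21), with 2299 bases between them. Their coding sequences of 630 bases are 98.1% identical and differ at 12 positions, of which 6 fall in the first 60 bases, shown here 5′ to 3′ with the differing bases in capitals.
Gstp1: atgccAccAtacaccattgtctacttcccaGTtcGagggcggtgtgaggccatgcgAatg
Gstp2: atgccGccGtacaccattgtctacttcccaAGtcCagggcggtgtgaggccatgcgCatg
Bases 331 to 630 of the coding sequence are the same in both genes. Of all stretches of 100 bases in their transcripts, 25.09% of those of Gstp1 and 46.92% of those of Gstp2 also occur in a transcript of another gene, namely the other pi gene or the pseudogene Gstp-ps. A read that falls wholly inside such a stretch cannot be given to a single gene, and how such reads were counted is not given in the sources used here.

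The upstream sequences of these neighbours are also related. The 250 bases before the RefSeq start site (GRCm38.p6) of Gstp1, chr19:4037913-4038162 on the minus strand, and of Gstp2, chr19:4042222-4042471 on the minus strand, aligned over 235 bases with 87.7% identity. They are printed 5′ to 3′ because the levels of these genes changed in the same direction in most comparisons below. The capitals mark the only match to TGACTCA, read on either strand, which is the letter pattern bound by AP-1 factors.
Gstp1: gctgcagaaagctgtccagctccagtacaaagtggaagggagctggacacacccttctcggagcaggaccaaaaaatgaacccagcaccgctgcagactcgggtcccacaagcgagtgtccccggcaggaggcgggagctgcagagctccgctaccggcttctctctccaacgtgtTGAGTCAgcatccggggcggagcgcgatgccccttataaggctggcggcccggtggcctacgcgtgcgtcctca
Gstp2: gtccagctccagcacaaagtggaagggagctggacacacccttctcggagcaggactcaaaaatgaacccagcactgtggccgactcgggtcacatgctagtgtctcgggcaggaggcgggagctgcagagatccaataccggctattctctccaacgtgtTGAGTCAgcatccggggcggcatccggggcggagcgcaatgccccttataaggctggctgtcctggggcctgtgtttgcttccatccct
The match starts 74 bases before the start site in Gstp1 and 89 bases before it in Gstp2, and 5.2% of 32817 RefSeq promoters of the same 300-base length hold this pattern. RefSeq promoters were matched for 9 of the 10 members, Gsta4 being the exception. Of these 9, only Gsta3 held TGACNNNGC, the form of the NRF2 core searched for, 121 bases before its start site (12.4% of all promoters hold it). Both pi sequences read TGAGTCAGC at the marked site, with G in place of the C of that pattern, and this form was not searched for. None of the 9 held the STAT pattern TTCNNNGAA (8.29%) or the full estrogen response element (GGTCA and its reverse complement 3 bases apart, 0.0701%).

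Gstp1, which encodes the main pi class enzyme of mouse liver, separated the 4 groups more widely than any other member. It stood at 85.0, 122 and 99.3 CPM in the FWT livers and at 1734, 1438 and 1334 CPM in the MWT livers. The FKO livers gave 359, 295, 359, 363 and 520 CPM, and the MKO livers gave 591, 621, 550 and 756 CPM. No group overlapped another, and the order was MWT, MKO, FKO, FWT. In bulk tissue a smaller number of expressing cells and less RNA per cell cannot be told apart.

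**Figure D1:**
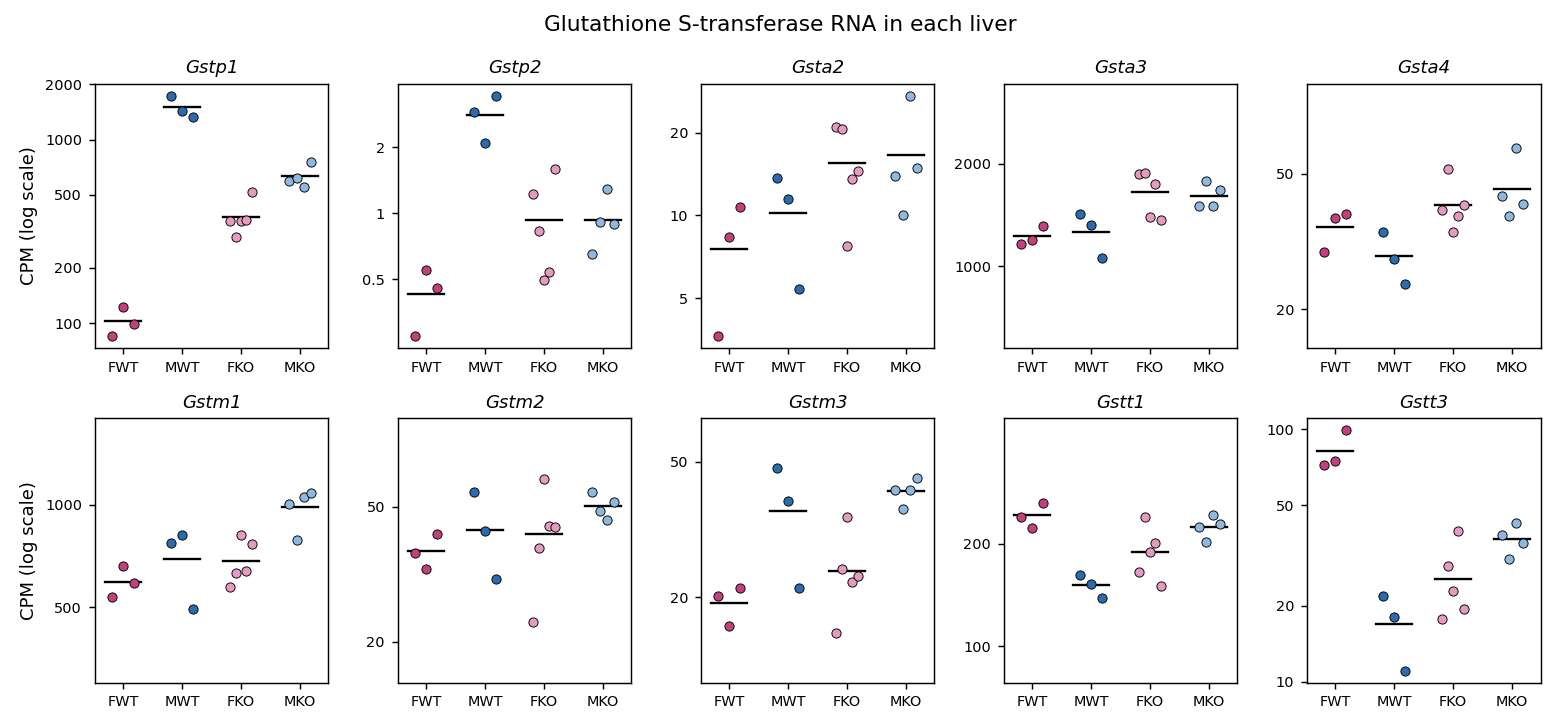
Level of each of the 10 genes in each liver, in CPM on a log axis with its own range in each panel; each point is a mouse and each line a group mean, for FWT (n = 3), MWT (n = 3), FKO (n = 5) and MKO (n = 4). The 4 groups of Gstp1 do not overlap, the FWT livers stand above all others for Gstt3 at 71.8 to 98.8 CPM, and the groups of Gstm2 and Gsta2 lie largely over each other.

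In WT livers Gstp1 was 14.7-fold lower in females, a log2 fold change of -3.88 (SE 0.218, edgeR, adjusted p = 3.796e-09). In females it rose with the knockout by 1.89 (SE 0.188, adjusted p = 7.998e-06), or 3.71-fold. In males it fell by 1.25 on the log2 scale (SE 0.180, adjusted p = 0.001892), or 2.39-fold. FKO livers remained below MWT livers, by a log2 fold change of -1.99 (SE 0.170, adjusted p = 3.249e-06). The knockout effects of the 2 sexes differed by 3.15, females less males, (SE 0.259, adjusted p = 1.869e-06). Between the ESR1KO groups the difference was -0.73 (SE 0.159) and missed the threshold (adjusted p = 0.06117), although each of the 5 FKO values lay below each of the 4 MKO values (p = 0.01587 by a 2-sided exact permutation test of log2 CPM, the lowest value that 5 against 4 mice allow). Without FKO mouse 5, the highest of its group, that difference passed the threshold (adjusted p = 0.01053). Under the alternatives other than leaving out a mouse, its adjusted p ran from 0.001447 (DESeq2's Wald test) to 0.1487 (edgeR).

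Gstp2, the neighbouring pi class gene, was present at a far lower level. It stood at 0.275, 0.553 and 0.458 CPM in FWT and at 2.89, 2.10 and 3.44 CPM in MWT. The FKO livers gave 1.23, 0.827, 0.495, 0.537 and 1.58 CPM, and the MKO livers 0.651, 0.910, 1.29 and 0.891 CPM. The MWT livers stood above all others, while FKO overlapped both FWT and MKO. The counts behind these values were small, from 16 to 24 per FWT library and from 86 to 217 per MWT library.

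Gstp2 was lower in FWT than in MWT by a log2 fold change of -2.74 (SE 0.407, edgeR, adjusted p = 0.0003758). In males with the knockout it fell by 1.57 on the log2 scale (SE 0.340, adjusted p = 0.02842) and was lower in FKO than in MWT by -1.56 (SE 0.320, adjusted p = 0.0135). The comparison of MKO with MWT lost its call without any of 5 mice (MWT mouse 1 or 3, or MKO mouse 1, 2 or 4, adjusted p up to 0.1614), and that of FKO with MWT lost it without MWT mouse 1 or 3 (adjusted p up to 0.09253). In females the difference was 1.17 (SE 0.389) and missed the threshold (adjusted p = 0.08743, or 0.04393 without FKO mouse 3), yet the knockout effect differed between the sexes by 2.74 (SE 0.518, adjusted p = 0.00749). Under the alternatives other than leaving out a mouse, the adjusted p of the female difference ran from 0.03178 (DESeq2's Wald test) to 0.1864 (edgeR). FKO and MKO had nearly the same mean, with a difference of 0.0023 and an SE of 0.318 (adjusted p = 0.9979), so that a difference of about the size of that SE was not detectable.

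Counts of Gstp2 equalled 0.412% ± 0.0769 (SD, n = 3) of those of Gstp1 in FWT, 0.190% ± 0.0594 (n = 3) in MWT, 0.243% ± 0.0937 (n = 5) in FKO and 0.152% ± 0.0570 (n = 4) in MKO. Because the transcripts share long stretches, a small number of Gstp1 reads counted for Gstp2 would be enough to set a level of this size, and the part that this plays was not tested. The pseudogene Gstp-ps, which shares sequence with both, stood at 0.574 ± 0.199 CPM in FWT, 6.95 ± 1.01 in MWT, 1.76 ± 0.398 in FKO and 3.20 ± 0.217 in MKO, which is the order of Gstp1.

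The theta genes ran the other way. Gstt1, whose enzyme acts on small halogenated compounds, and Gstt3 lie on the minus strand of chromosome 10 with 2398 bases between them (Gstt1 at chr10:75783813-75798584, Gstt3 at chr10:75774115-75781414), and their coding sequences are 75.4% identical. Transcripts of Gstt1 shared no stretch of 100 bases with another gene. Those of Gstt3 shared 10.83%, all with Gm20441, a gene on the same strand whose exons overlap 524 bases of Gstt3 and which had at most 1 count in any library.

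Gstt3 stood at 71.8, 75.1 and 98.8 CPM in FWT and at 21.8, 17.97 and 11.1 CPM in MWT. The FKO livers gave 17.7, 28.7, 22.8, 39.35 and 19.4 CPM, and the MKO livers 38.2, 30.7, 42.4 and 35.4 CPM. The FWT livers lay above every other liver and the MKO livers above every MWT liver, while FKO overlapped both MWT and MKO. Gstt3 was higher in FWT than in MWT by a log2 fold change of 2.28 (SE 0.279, edgeR, adjusted p = 4.802e-05), or 4.85-fold, and in females with the knockout it fell by 1.68 on the log2 scale (SE 0.233, adjusted p = 0.0003096). In males it rose by 1.12 (SE 0.259, adjusted p = 0.03973). That rise lost its call without any of 8 mice (FWT mouse 2, MWT mouse 2 or 3, FKO mouse 2 or 3, or MKO mouse 1, 3 or 4), with an adjusted p of up to 0.2124 without MWT mouse 3, the lowest of all livers. The knockout effect differed between the sexes by -2.80 (SE 0.351, adjusted p = 0.0001724).

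Gstt1 followed the same order of group means, FWT, MKO, FKO, MWT, over a narrower range. It stood at 240.0, 223 and 264 CPM in FWT, at 162, 152 and 138 in MWT, at 165, 240, 190, 201 and 151 in FKO, and at 223, 202, 243 and 228 in MKO. MWT livers lay below all FWT and all MKO livers, while FWT and MKO overlapped. The WT females exceeded the WT males by 0.68 (SE 0.149, edgeR, adjusted p = 0.01117), a call lost without FWT mouse 3 (adjusted p = 0.06074) or MWT mouse 3 (adjusted p = 0.05136). The knockout effects were -0.36 (SE 0.131, adjusted p = 0.1188) in females and 0.57 (SE 0.140, adjusted p = 0.05333) in males, both short of the threshold. The female effect passed it without FKO mouse 2 (adjusted p = 0.04631), and the male effect without FKO mouse 1, 2 or 5 (adjusted p = 0.03533, 0.02603 and 0.02992). Under the alternatives other than leaving out a mouse, the adjusted p of the male effect ran from 0.006403 (DESeq2's Wald test) to 0.1046 (edgeR). The difference between the effects was -0.93 (SE 0.192) and passed the threshold (adjusted p = 0.01532), though not without FWT mouse 3 (adjusted p = 0.05427) or MWT mouse 3 (adjusted p = 0.05244).

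**Figure D2:**
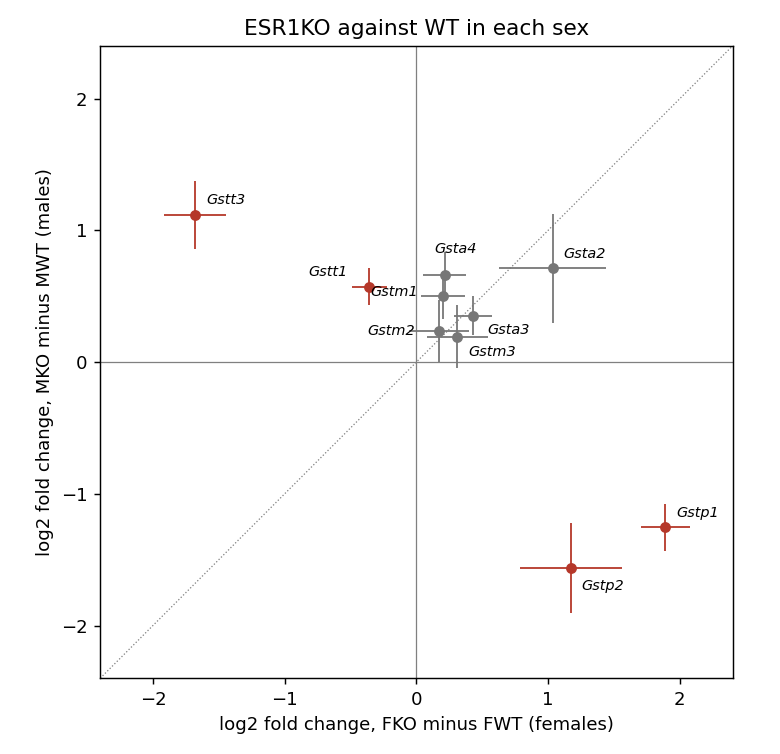
Log2 fold change of ESR1KO against WT livers in females (horizontal axis) and in males (vertical axis) for the 10 genes, with standard errors as bars; red marks genes whose effect differed between the sexes at an edgeR adjusted p under 0.05, and the dotted line marks equal effects. Gstp1 (1.89 and -1.25) and Gstp2 (1.17 and -1.57) lie at the lower right, Gstt3 (-1.68 and 1.12) and Gstt1 (-0.36 and 0.57) at the upper left, and the mu and alpha genes lie together with values above 0 in both sexes, none of them called by edgeR.

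Among the 10 genes, the sex difference in WT livers thus counted 2 called higher in females (Gstt1 and Gstt3) and 2 called lower (Gstp1 and Gstp2). Over all genes tested, 2.67% were called higher and 2.20% lower. The median log2 fold change of the members was -0.22, against 0.01 over all genes. Between FKO and MKO edgeR called 0 of the 10 in either direction, where 0.159% of all genes were called higher and 0.113% lower. In that comparison 4 members had an unadjusted p under 0.05 (Gstp1, Gstm1, Gstm3 and Gstt3), as did 17.5% of all genes, and DESeq2's Wald test called 3 members and 2.72% of all genes. In females with the knockout 1 member was called higher and 1 lower (background 3.14% and 2.57%), and in males 1 higher and 2 lower (background 0.833% and 0.583%). Between FKO and MWT 0 members were called higher and 2 lower (background 1.38% and 1.23%), with 7 members at an unadjusted p under 0.05, as were 17.4% of all genes. The knockout effect differed between the sexes for 4 members, 2 in each direction (background 1.02% and 0.923%). In the other comparisons an unadjusted p under 0.05 was held by 5 members between FWT and MWT (17.3% of all genes), 6 between FKO and FWT (22.5%), 7 between MKO and MWT (11.9%) and 4 for the difference between the sexes (14.3%). DESeq2 called 4 members and 9.30% of all genes between FKO and FWT, and 5 members and 2.73% of all genes between MKO and MWT. Comparisons that use the same groups are not independent of each other.

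**Figure D3:**
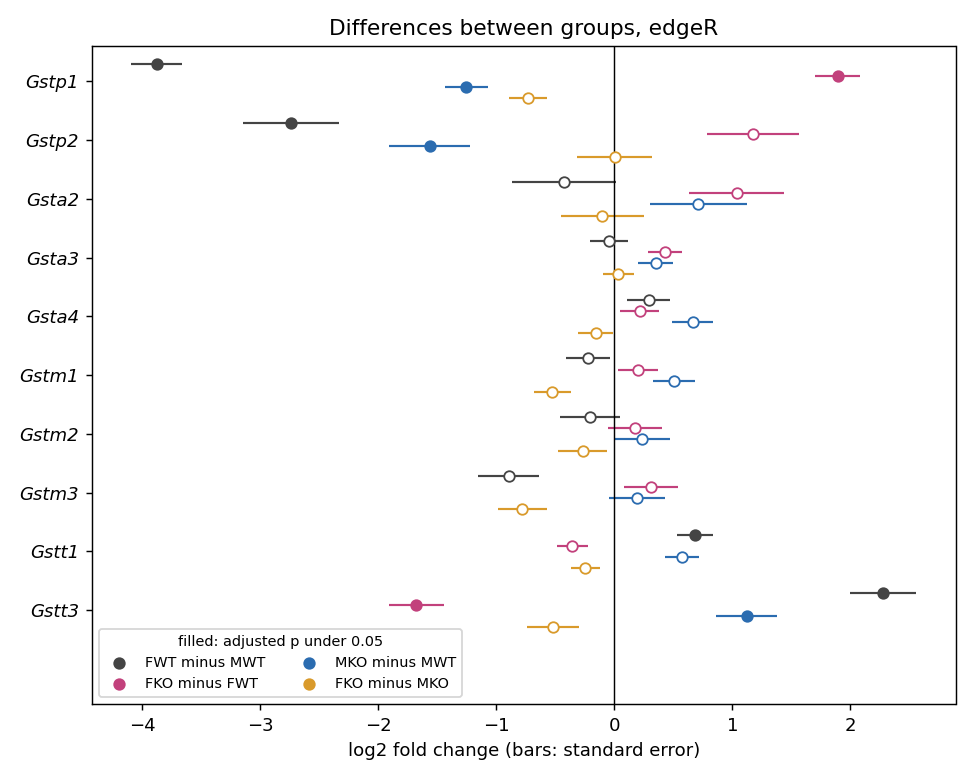
Log2 fold change of each of the 10 genes in 4 comparisons, with bars for the standard error; filled points have an edgeR adjusted p under 0.05 and open points do not. Filled points occur only for Gstp1, Gstp2, Gstt1 and Gstt3, and no point for FKO minus MKO is filled.

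The mu genes, whose enzymes act on epoxides and many aromatic compounds, lie on the minus strand of chromosome 3, with Gstm3 at chr3:107963696-107969283, Gstm2 at chr3:107981702-107986453 and Gstm1 at chr3:108012255-108017973. Their coding sequences were 84.7% to 89.4% identical in pairs, and 5.86%, 0.36% and 13.78% of the 100-base stretches of Gstm1, Gstm2 and Gstm3 were shared with other genes, mostly pseudogenes and mu genes. All 3 had the same order of group means, MKO, MWT, FKO, FWT, and edgeR called none of them in any comparison. DESeq2's Wald test called Gstm3 between FWT and MWT (adjusted p = 0.01367) and between FKO and MKO (adjusted p = 0.02016), and Gstm1 between FKO and MKO (adjusted p = 0.03407).

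Gstm3 had the largest estimates of the 3. It stood at 20.1, 16.4 and 21.2 CPM in FWT and at 47.9, 38.5 and 21.3 CPM in MWT. The FKO livers gave 15.7, 24.2, 34.4, 22.2 and 23.15 CPM, and the MKO livers 41.4, 36.4, 41.4 and 44.8 CPM. Males lay above females in WT livers and in ESR1KO livers, in WT livers by a narrow margin, since MWT mouse 3 was close to the highest FWT mouse. The log2 fold changes of females against males were -0.90 (SE 0.257, edgeR, adjusted p = 0.05643) in WT and -0.78 (SE 0.208, adjusted p = 0.1092) in ESR1KO livers, the exact permutation p of the second being 0.01587. Without MWT mouse 3 the WT difference passed the threshold (adjusted p = 0.006063), as it did without FKO mouse 1 (adjusted p = 0.02699) or FKO mouse 3 (adjusted p = 0.03138), and the ESR1KO difference passed it without FKO mouse 3 (adjusted p = 0.04903). The knockout effects were 0.31 (SE 0.231) in females and 0.19 (SE 0.238) in males.

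Gstm1, the most abundant member per kilobase of annotated exon in FWT, FKO and MKO though not in CPM, ranged from 534 to 659 CPM in FWT, from 495 to 812 in MWT, from 572 to 812 in FKO and from 786 to 1086 in MKO. The MKO livers were mostly above the others, and only MKO mouse 2 fell within the FKO range. MKO differed from FKO by a log2 fold change of -0.53 for FKO minus MKO (SE 0.155, edgeR, adjusted p = 0.1354) and from MWT by 0.50 (SE 0.179, adjusted p = 0.2215). Gstm2 overlapped between the groups of each comparison tested, though not between FWT and MKO, with means of 37.0 ± 4.46 CPM in FWT (SD, n = 3), 42.7 ± 12.4 in MWT (n = 3), 41.7 ± 13.4 in FKO (n = 5) and 50.3 ± 4.09 in MKO (n = 4). Its log2 fold changes lay between -0.27 and 0.24, with SEs of 0.206 to 0.326 that leave changes of that size unresolved.

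The alpha genes, which encode enzymes that reduce lipid hydroperoxides and conjugate aldehydes from oxidised lipids, are less closely grouped: Gsta2 at chr9:78331018-78355788 (minus strand) and Gsta4 at chr9:78182774-78209349 (plus strand) share a chromosome, whereas Gsta3 is at chr1:21240589-21265661 (plus strand). EdgeR called none of the 3 in any comparison, and their estimates for the knockout were above 0 in both sexes. DESeq2's Wald test called Gsta3 in females with the knockout (adjusted p = 0.02426) and Gsta4 in males (adjusted p = 0.01903).

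Gsta3, the main alpha gene of these livers, stood at 1162, 1195 and 1315 CPM in FWT and at 1420, 1317 and 1053 CPM in MWT. The FKO livers gave 1863, 1875, 1399, 1746 and 1370 CPM, and the MKO livers 1499, 1776, 1499 and 1671 CPM. Each ESR1KO liver exceeded each WT liver of its own sex. The log2 fold changes were 0.43 in females (SE 0.143, edgeR, adjusted p = 0.08801, exact permutation p = 0.03571, the smallest possible) and 0.35 in males (SE 0.149, adjusted p = 0.3504, exact permutation p = 0.05714, also the smallest possible). Without FKO mouse 5 the female difference passed the threshold (adjusted p = 0.04407). The sexes did not separate in WT livers (-0.05, SE 0.158) or in ESR1KO livers (0.03, SE 0.130), and the difference between the knockout effects was 0.08 (SE 0.205).

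Gsta4, whose enzyme is known for conjugating the lipid aldehyde hydroxynonenal, ranged from 29.45 to 38.2 CPM in FWT, from 23.8 to 33.8 in MWT, from 33.8 to 51.6 in FKO and from 37.6 to 59.6 in MKO. All MKO livers exceeded all MWT livers, with a log2 fold change of 0.66 (SE 0.174, edgeR, adjusted p = 0.07613), while in females the ranges overlapped (0.22, SE 0.165, adjusted p = 0.4674). Gsta2 was low and variable, from 3.65 to 10.75 CPM in FWT, from 5.39 to 13.7 in MWT, from 7.74 to 20.9 in FKO and from 10.05 to 27.2 in MKO. Its groups overlapped in each comparison, and its largest estimate was 1.04 for FKO against FWT (SE 0.405, adjusted p = 0.1404). Of the 100-base stretches of Gsta2, 28.37% also occur in Gsta1, Gm10639 or Gm3776.

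A library, MWT mouse 3, was the lowest of its group for 9 of the 10 members, all but Gstp2. It was also the MWT mouse farthest from its nearest neighbour in CPM for 6 members (Gsta2, Gsta3, Gstm1, Gstm3, Gstt1 and Gstt3), and its Esr1 level was 52.0 CPM against 25.04 and 31.2 in the other MWT mice. FWT mouse 1 was the lowest of its group for 7 members and MKO mouse 2 for 6. The share of all genes for which each library was lowest was not computed, so a shift of a whole library cannot be told from one of these members.

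Divided by exon length, the levels can be compared roughly between genes. The length used joins all annotated exons of a gene, 4344 bases for Gsta3 and 1473 for Gstm1. It can exceed the length of the transcripts present. Before this division Gsta3 stood above Gstm1 in FWT, with means of 1224 and 594 CPM, so the shares below depend on the lengths used. The 10 members summed to 1002 ± 67.3 CPM per kilobase in FWT (SD, n = 3), 1922 ± 303 in MWT (n = 3), 1308 ± 47.1 in FKO (n = 5) and 1713 ± 125 in MKO (n = 4). Gstp1 alone made up 6.57% of that sum in FWT, 50.7% in MWT, 18.7% in FKO and 23.7% in MKO. Without Gstp1 the other 9 summed to 936 ± 58.7 in FWT, 951 ± 189.9 in MWT, 1063 ± 48.6 in FKO and 1307 ± 94.4 in MKO, so that the WT sexes then overlapped and MKO lay above the other groups. Gstm1 held the largest share in FWT (40.2%), FKO (35.4%) and MKO (38.9%), Gsta3 held 15.2% to 29.2%, and Gstt1 held 15.9% in FWT and 5.18% in MWT. Gstp2, Gsta2, Gsta4, Gstm2, Gstm3 and Gstt3 were minor members throughout.

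**Figure D4:**
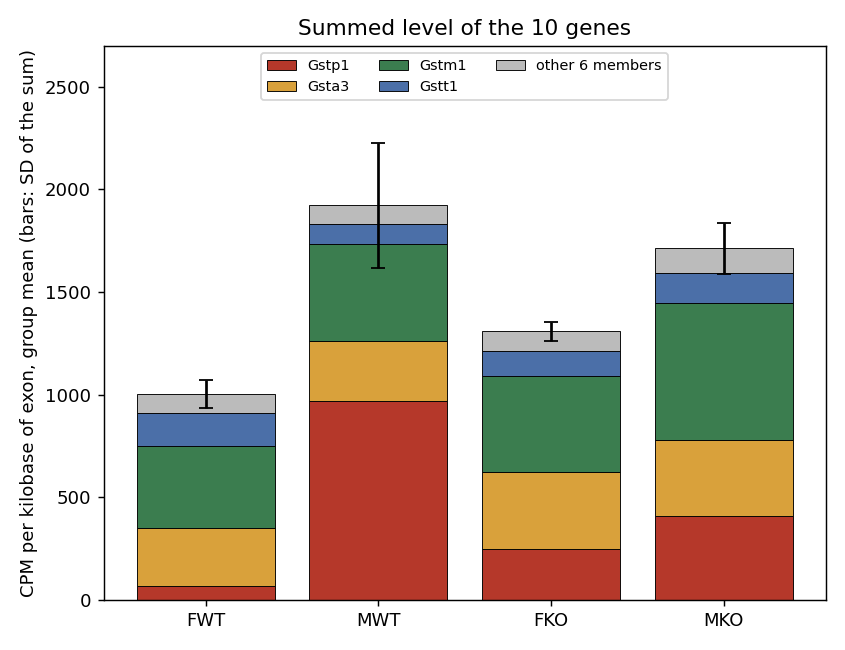
Summed level of the 10 genes in CPM per kilobase of exon, as stacked group means for FWT (n = 3), MWT (n = 3), FKO (n = 5) and MKO (n = 4); black bars are the SD of the sum over mice. The Gstp1 segment stands at 66.0 in FWT and 970 in MWT, and at 245 in FKO and 407 in MKO, while the rest of the column reaches its greatest height in MKO.

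Of 19 other GST genes listed, 15 were tested. In WT livers 1 was called higher in females and 1 lower. With the knockout 2 were called higher in females and 1 in males, and 2 were called higher in FKO than in MWT. Between FKO and MKO edgeR called none of them. Mgst3, a microsomal enzyme that also acts as a glutathione peroxidase, stood at 15.1 ± 2.17 CPM in FWT, 6.28 ± 1.23 in MWT, 13.9 ± 2.58 in FKO and 15.04 ± 3.16 in MKO. It was higher in FWT than in MWT (1.27, SE 0.207, edgeR, adjusted p = 0.0009416) and rose in males with the knockout (1.27, SE 0.198, adjusted p = 0.00347), while in females it differed by -0.12 (SE 0.179, adjusted p = 0.7407). Mgst1, an abundant microsomal GST, was lower in FWT than in MWT by -0.62 (SE 0.168, adjusted p = 0.04148) and rose in females with the knockout by 0.86 (SE 0.155, adjusted p = 0.003412). Gsta1, which shares sequence with Gsta2, rose in females by 2.98 (SE 0.532, adjusted p = 0.00319) from a level of 0.195 ± 0.155 CPM. In males its estimate was 1.83 (SE 0.450, adjusted p = 0.05536), short of the threshold. The difference between these effects was not called (1.16, SE 0.702, adjusted p = 0.4595). Gstm5, a further mu gene, was higher in FKO than in MWT (0.52, SE 0.125, adjusted p = 0.03534). Gstp3, the third pi gene of the table, was not called by edgeR in any of these comparisons, with -0.38 (SE 0.159) in females and 0.40 (SE 0.168) in males, opposite in sign to Gstp1 and Gstp2.

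Of the genes that supply or recycle glutathione 14 were tested. In WT livers 1 was called lower in FWT than in MWT (Gsr, glutathione reductase, -0.45, SE 0.0987, edgeR, adjusted p = 0.01241) and 1 rose in females with the knockout (Gpx4, the lipid hydroperoxide peroxidase, 0.74, SE 0.133, adjusted p = 0.003412). None was called in males or between FKO and MKO. Gclc, the catalytic subunit of the enzyme that limits glutathione synthesis, had log2 fold changes of 0.56 (SE 0.211, adjusted p = 0.1232) in females and 0.24 (SE 0.217, adjusted p = 0.7332) in males.

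Among genes for the export and further processing of glutathione conjugates, 9 of 11 were tested, with 1 called lower in FWT than in MWT and, in females with the knockout, 1 called higher and 1 lower. Nat8, which acetylates cysteine conjugates at the end of the mercapturate pathway, stood at 0.460 ± 0.116 CPM in FWT, 9.05 ± 1.56 in MWT, 6.21 ± 1.83 in FKO and 6.17 ± 0.832 in MKO. Only the WT females were low. It rose in females by 3.77 (SE 0.283, edgeR, adjusted p = 2.963e-07), and its difference between the sexes went from -4.31 in WT (SE 0.297, adjusted p = 4.436e-08) to 0.02 in ESR1KO livers (SE 0.195, adjusted p = 0.9735). In males it differed by -0.56 (SE 0.218, adjusted p = 0.2897), and the knockout effect differed between the sexes (4.33, SE 0.354, adjusted p = 1.869e-06). Acy3, an aminoacylase that acts on mercapturates, was lower in FKO than in FWT (-0.71, SE 0.144, adjusted p = 0.007646). Abcc2, the canalicular export pump for conjugates, was not called by edgeR in these comparisons and kept means of 750 to 926 CPM.

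Of the NRF2 axis and its targets 14 of 15 genes were tested, and those called in WT livers did not share a direction. In WT livers Nqo1, a quinone reductase, was higher in females (1.27, SE 0.229, edgeR, adjusted p = 0.002458), while Ugdh, which makes UDP-glucuronic acid, was lower (-0.97, SE 0.118, adjusted p = 4.333e-05), as was Gsr. With the knockout Ugdh rose in females (0.85, SE 0.108, adjusted p = 0.0001155) and Me1, malic enzyme, rose in males (1.65, SE 0.302, adjusted p = 0.009036). The median over the list was 0.12 in females and 0.34 in males, against medians near 0 over all genes (-0.0013 and -0.0011). In males most estimates of the list were above 0, the exceptions being Gclm (-0.27, SE 0.117) and Gsr (-0.06, SE 0.092), though only Me1 was called. Between FKO and MKO the median of the list was -0.29, and edgeR called none of it. For CAR, PXR and their targets all 8 genes were tested, with 2 called higher and 2 lower in FWT than in MWT, 1 higher and 1 lower in FKO than in FWT, and 2 higher in MKO than in MWT. In WT livers Nr1i3, which encodes CAR, was higher in females (0.95, SE 0.227, adjusted p = 0.02017), while Cyp2c55 (-1.12, SE 0.285, adjusted p = 0.02939) and Ces2a, a carboxylesterase gene (-0.77, SE 0.166, adjusted p = 0.01058), were lower. Cyp2b10, the classical CAR target, was higher in FWT than in MWT by 7.69 (SE 0.536, adjusted p = 4.952e-08), in females with the knockout fell by 2.37 (SE 0.285, adjusted p = 7.101e-05) and rose in males by 5.69 (SE 0.550, adjusted p = 4.985e-05). The MWT livers held 7 counts of it in all, so that the size of the folds against them depends on the prior count. Cyp2c55 rose in females (1.96, SE 0.266, adjusted p = 0.0002496) and in males (1.17, SE 0.258, adjusted p = 0.02998). The medians of the other lists for the knockout in females and in males were 0.08 and 0.36 for the other GST genes, 0.04 and 0.08 for glutathione supply, -0.12 and 0.22 for conjugate export, and -0.11 and 0.43 for CAR and PXR.

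The genes nearest to Gstp1 over the 4 group means, by root mean square distance of centred log2 CPM, were Asns at 0.0674 (asparagine synthetase), C6 at 0.13 (a terminal complement component) and Gstp-ps at 0.134, followed by Gm13773 and Gm49419. C6 stood at 23.7 ± 4.40 CPM in FWT, 394 ± 39.6 in MWT, 114 ± 26.4 in FKO and 169 ± 40.1 in MKO. The nearest to Gstt3 were Mir802 at 0.133, Tox at 0.204, Gm1600 at 0.207, Abcb1a at 0.254 and 1810044K17Rik at 0.259. Several of these neighbours were low. The highest group means were 0.390 CPM for Mir802 and 0.811 for Gm1600 (FWT), and 0.546 for Gm13773 and 0.426 for Gm49419 (MWT). At such levels the prior count of 2 bears on the log2 CPM. Tox, a nuclear protein gene, stood at 13.9 ± 2.98 CPM in FWT, 3.36 ± 0.940 in MWT, 5.91 ± 0.621 in FKO and 6.51 ± 1.71 in MKO, and the drug efflux pump gene Abcb1a at 13.01 ± 1.72, 2.73 ± 0.223, 5.70 ± 0.876 and 5.27 ± 0.593 in the same order of groups.

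Markers of bile duct cells, which also express pi class GST, were compared beside Gstp1. The summed level of 6 cholangiocyte markers (Krt19, Krt7, Epcam, Sox9, Spp1 and Cldn7) was 32.8 to 33.2 CPM in FWT, 34.3 to 55.7 in MWT, 43.9 to 51.7 in FKO and 41.5 to 59.7 in MKO, with no marker at 0 in any group. Most of that sum was Spp1, at 28.8 CPM in FWT, 40.0 in MWT, 43.5 in FKO and 43.8 in MKO, and the other markers did not share its order. Epcam was higher in FWT than in MWT (1.08, SE 0.220, edgeR, adjusted p = 0.006571) and Sox9 lower (-1.03, SE 0.273, adjusted p = 0.03842). With the knockout Spp1 rose in females (0.60, SE 0.147, adjusted p = 0.02718), and Epcam (0.95, SE 0.209, adjusted p = 0.02998) and Krt19 (1.23, SE 0.271, adjusted p = 0.03067) rose in males. The levels of both were low, with means of 0.664 CPM in MWT and 1.27 in MKO for Epcam and 0.542 and 1.26 for Krt19. The part of these cells in the level of Gstp1 was not tested. Of the 8 pericentral hepatocyte markers 2 were called lower in FKO than in FWT and 0 in MKO against MWT, with sums of 9299 to 11390 CPM in FWT, 8401 to 9455 in MWT, 6336 to 9990 in FKO and 7678 to 9037 in MKO. Of the 7 periportal markers 1 was called lower in FWT than in MWT and 1 higher in FKO than in FWT. The periportal sums were 6123 to 8936 CPM in FWT, 6829 to 8143 in MWT, 4588 to 6557 in FKO and 5152 to 7819 in MKO. Between FKO and MWT 1 pericentral marker was called higher and 1 lower, and 1 periportal marker lower (Cyp2f2, -0.80, SE 0.183, edgeR, adjusted p = 0.02727). Their part in the GST levels was likewise not tested.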

How the data were processed

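Total RNA of 15 livers, 1 per mouse, was depleted of ribosomal RNA and sequenced in pairs, with an added run for libraries of low yield, which are not named. Per the labels, the authors used Trimmomatic 0.36, STAR with GRCm38, and HTSeq 0.6.0, and the deposited values are raw counts per gene, not normalized. The study's methods name another version of HTSeq, and which was used for these counts is not settled here. Strand setting, annotation and treatment of multiply aligned reads are not given in the sources used here. Groups came from the labels. The members and gene lists were chosen with earlier results of these data known. All 15 libraries were fitted together by group mean in edgeR 4.0.16 (R 4.3.3; TMM, filterByExpr, quasi-likelihood test). All members and genes of fixed lists were named by symbol, with values for at most 4 genes of a list in a comparison, those called with the largest change and then the most abundant, and the 5 nearest genes for Gstp1 and Gstt3. Gstp3 and Gclc were chosen after their values were seen. Log2 CPM used a prior count of 2. Single members were also compared by a 2-sided exact permutation test, where 3 against 3 cannot go below 0.1. Alternatives were DESeq2 1.42.0, other scaling, filters, samples, a replicate block and leaving out each mouse. The fit was tested on simulated data. Shared stretches and coding identity came from GENCODE M21 transcripts. No replicates agreed within sampling noise (chi-square of at least 23.52 per gene).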

Additional observations from a re-analysis of the deposited data

Results flagged for a closer look

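The effect of the knockout in females minus that in males, tested as an interaction in edgeR, passed the threshold for 4 of the 10 members, for 3 genes of the glutathione and receptor lists and for 1 cholangiocyte marker. On the log2 scale it was 3.15 for Gstp1 (adjusted p = 1.869e-06), 2.74 for Gstp2 (adjusted p = 0.00749), -0.93 for Gstt1 (adjusted p = 0.01532) and -2.80 for Gstt3 (adjusted p = 0.0001724). It was -1.39 for Mgst3 (adjusted p = 0.007802), 4.33 for Nat8 (adjusted p = 1.869e-06) and -8.06 for Cyp2b10 (adjusted p = 7.547e-07), where the MWT livers held 7 counts in all and the size depends on the prior count. It was -1.17 for Epcam (adjusted p = 0.03901). Of all genes tested, the interaction was called above 0 for 1.02% and below 0 for 0.923%. The lists held 15, 14, 9, 14 and 8 tested genes, some shared between lists, and the cholangiocyte list 6. Markers of other cell types and zones were left out of this screen. Of these, the erythroid marker Alas2 also passed the threshold (2.63, SE 0.342, edgeR, adjusted p = 0.0002443). The pi genes and Nat8 were lower in WT females than in WT males, and the theta genes, Mgst3, Cyp2b10 and Epcam were higher. The interaction equals the sex difference in ESR1KO livers less that in WT livers. Where the ESR1KO difference is small, the sign of the interaction must oppose the WT difference, so this match is largely built in. Of 20 groups of 4 or 5 values tested for a value far from the others, 0 met the criterion; chance alone would mark about 1 in 20. The nearest to it was FKO mouse 5 for Gstp1, whose gap to the next value was 0.698 of the range of its group.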

How the results depend on the processing

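Of the 15 called member results, no direction changed in 326 alternatives other than a fold minimum, 304 stayed past the threshold and 22 did not. The calls of Gstp1, of Gstp2 in WT livers and in the difference between the sexes, and of Gstt3 other than in males, were lost in none of these. Of 10 members, DESeq2's Wald test called 3 between FKO and MKO (edgeR 0), 4 between FKO and FWT (edgeR 2) and 5 between MKO and MWT (edgeR 3), while over all genes it called 431, 1533 and 486 (edgeR 48, 1008 and 250). With no filter the counts were 2 between FKO and MKO and 4 between FKO and FWT, and with a log2 fold change of at least 1.5 the count between MKO and MWT was 1, Gstp1 (-1.25) being among those under that minimum. With each mouse left out in turn the counts ran from 0 to 1 between FKO and MKO (1 without FKO mouse 3 or 5), from 1 to 4 between MKO and MWT (1 without MWT mouse 3, MKO mouse 1 or MKO mouse 4) and from 1 to 2 between FKO and MWT (1 without MWT mouse 1 or 3). Mice with the same number did not deviate together: 1 of 16 pairs had a correlation over 0.1 (-0.1946 to 0.1395). A replicate block gave 1 call between FKO and MKO (Gstp1, adjusted p = 0.03376) and 1 between MKO and MWT, and a difference of -0.3028 for Gstp2 between FKO and MKO.

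Sign changes fell on 13 uncalled results, each with an adjusted p of 0.5756 or more. With total counts only, Gsta3 differed by 0.0062 between FWT and MWT, and Gstm1 by 0.0158 and Gstm2 by 0.0075 between FKO and MWT. Gstp2 differed by -0.0033 between FKO and MKO with DESeq2's size factors and by -0.0096 in DESeq2, and with no filter the interaction of Gstm2 was 0.0024. With each mouse left out, FWT minus MWT ran from -0.1608 to 0.0464 for Gsta3 and from -0.4004 to 0.022 for Gstm2. FKO minus MKO ran from -0.3002 to 0.198 for Gstp2, from -0.2805 to 0.2503 for Gsta2, from -0.0143 to 0.095 for Gsta3 and from -0.2591 to 0.0031 for Gsta4. MKO minus MWT ran from -0.0753 to 0.4576 for Gstm3, and FKO minus MWT from -0.214 to 0.1081 for Gstm1 and from -0.2277 to 0.1945 for Gstm2. The interaction ran from -0.0143 to 0.679 for Gsta2, from -0.012 to 0.1957 for Gsta3, from -0.2919 to 0.1308 for Gstm2 and from -0.1467 to 0.3864 for Gstm3.

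Over all genes and all alternatives that keep each mouse, calls ran from 791 to 1261 between FWT and MWT (860 as reported), 26 to 431 between FKO and MKO (48), 457 to 1533 between FKO and FWT (1008), 165 to 486 between MKO and MWT (250), 242 to 853 between FKO and MWT (461) and 289 to 583 for the interaction (343). The causes were not tested. Gstp2, with 16 to 24 counts per FWT library, is the member most limited by depth.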
